A study of Mus musculus with 29 samples.

Results

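Collagen genes were described in RNA from brain tissue of mouse embryos at stage E11.5. The members were every row of the count tables whose symbol is Col, a number, the letter a and a number, which gave 44 genes of the 25239 listed. The 8 RNA-seq libraries formed 4 groups of 2: forebrain of wildtype embryos, forebrain of embryos with the hs267-853 knockout, midbrain of wildtype embryos, and midbrain of embryos with the hs654 knockout. The hs numbers name enhancers, regulatory DNA outside genes, and whether hs267-853 stands for 1 deleted element or more is not given in the sources used here. No strain, zygosity or count of embryos was given. Each library was a pool of dissected tissue from several embryos of 1 genotype, so a p-value measures the spread between pools. Of the 44 genes, 11 encode fibrillar collagens, 8 encode collagens of basement membranes (the 6 type IV chains, Col15a1 and Col18a1), and 25 belong to other families. After the filter on low counts 38 were tested: all 11 fibrillar, 6 of the basement membrane and 21 of the other genes.

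Collagens are extracellular matrix proteins built from 3 chains wound into a triple helix, and some types combine chains from different genes. Fibrillar collagens such as types I and III form the fibrils of connective tissue, type IV forms the sheet-like network of basement membranes, and the other families coat fibrils, form beaded filaments or networks, or span the cell membrane. In the embryonic brain, collagen RNA is known mainly from the meninges and other mesenchyme around the neural tube, from blood vessels and from surface layers, while neuroepithelial cells express fewer of the genes. A whole dissected region therefore mixes neural and non-neural sources. In such bulk samples, fewer cells of a type and less RNA per cell cannot be told apart.

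Positions in RefSeq annotation of build GRCm38.p6 placed the 44 genes on 15 chromosomes, with 8 pairs lying within 100 kb of each other. Col4a1 and Col4a2, the 2 chains of the common type IV molecule, lie head to head on chromosome 8 and their annotated spans overlap by 85 bases. The stretch around their transcription start sites is shown because the read counts of this pair kept an almost constant ratio in all libraries, given further down. The 30 bases are the plus strand of chr8:11312801-11312830, with the 22 bases from the Col4a2 start (11312805, plus strand) to the Col4a1 start (11312826, minus strand) in capitals. That Col4a1 start is the one in the RefSeq promoter table, and the annotated gene reaches somewhat further.
Col4a2 and Col4a1 starts: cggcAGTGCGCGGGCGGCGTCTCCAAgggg

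The 3 chains of the common type VI molecule are arranged differently. Col6a1 and Col6a2 are neighbours on chromosome 10, 85.2 kb apart and both on the minus strand, and Col6a3 lies on chromosome 1. Bases before their annotated starts are shown because the balance of these 3 genes differed between forebrain and midbrain. The windows are Col6a1 at chr10:76726045-76726294, Col6a2 at chr10:76623631-76623880 and Col6a3 at chr1:90844002-90844221, all on the minus strand, 5′ to 3′. Capitals mark matches on either strand to the GC box, searched as GGGCGG. They also mark the CCAAT box. The TATA box was searched as TATAAA on both strands too. A further motif chosen after the letters were seen was CCTCCC on either strand.
Col6a1: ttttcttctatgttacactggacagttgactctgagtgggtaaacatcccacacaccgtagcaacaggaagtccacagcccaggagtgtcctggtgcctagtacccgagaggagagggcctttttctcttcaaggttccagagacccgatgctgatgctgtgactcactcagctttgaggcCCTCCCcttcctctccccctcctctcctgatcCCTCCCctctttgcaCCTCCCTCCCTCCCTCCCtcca
Col6a2: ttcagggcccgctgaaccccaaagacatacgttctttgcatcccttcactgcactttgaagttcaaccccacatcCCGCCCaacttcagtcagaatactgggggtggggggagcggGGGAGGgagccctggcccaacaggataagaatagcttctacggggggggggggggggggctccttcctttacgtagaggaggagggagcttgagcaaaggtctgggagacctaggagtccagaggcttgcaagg
Col6a3: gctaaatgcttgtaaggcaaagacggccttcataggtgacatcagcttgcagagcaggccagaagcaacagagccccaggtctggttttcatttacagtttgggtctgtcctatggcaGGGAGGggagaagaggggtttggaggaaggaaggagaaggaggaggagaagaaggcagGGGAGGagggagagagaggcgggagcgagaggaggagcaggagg

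CCTCCC matched 6 times before Col6a1, counting overlapping matches, 1 time before Col6a2 and 2 times before Col6a3, and 38% of 32851 RefSeq windows of 250 bases before a start held it. GGGCGG matched 1 time before Col6a2 and was not in the other windows, against 32.7% of all windows. The CCAAT box was in none of these 3 windows, against 33.8% of all. Nor was the TATA box, against 12.4% of all windows. A match is a description of letters, not of a factor's binding.

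Depth ranged from 9051632 to 18024406 counts in genes, and 3 counts corresponded to 0.170 to 0.328 CPM, the read count scaled to library size. Regional marker lists fitted the tissue labels: 9 of 9 forebrain genes were called higher and 7 of 7 midbrain genes lower in wild-type forebrain than in wild-type midbrain. No gene was named as the target of either enhancer in the labels, so the deletions were not checked in these counts. Neuronal genes were lower in wild-type forebrain (9 of 9, median log2 fold change -1.47), genes of cranial mesenchyme were higher (8 of 12, median 1.501) and so were genes of surface epithelium (10 of 11, median 4.09). Cartilage and skeletal muscle markers summed to at most 5.03 and 2.00 CPM in any library.

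The collagen genes with the most reads were Col3a1, Col4a1, Col1a2, Col4a2 and Col1a1, with means over the 8 libraries of 718, 493, 423, 312 and 304 CPM. CPM is not corrected for transcript length, so these values do not rank the genes by molecule number. Col3a1, the chain of type III collagen, measured 835 and 708 CPM in wild-type forebrain, 526 and 743 in hs267-853 knockout forebrain, 600 and 820 in wild-type midbrain and 722 and 791 in hs654 knockout midbrain. The 4 groups overlapped, and the 2 pools of knockout forebrain, like those of wild-type midbrain, lay further apart than any pair of group means. Col4a1 measured 519 and 513 CPM in wild-type forebrain, 464 and 511 in knockout forebrain, 401 and 527 in wild-type midbrain and 487 and 525 in knockout midbrain. Its lowest value by far was that of wild-type midbrain pool 1, and the other 7 libraries lay within 464 to 527 CPM.

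Among the others, Col1a2 ranged from 271 to 522 CPM, Col4a2 from 253 to 345 and Col1a1 from 176 to 370. These 2 type I chains were lowest in knockout forebrain pool 1, and Col4a2 in wild-type midbrain pool 1. Col2a1, the type II chain of cartilage that is also known from early neuroepithelium, varied least among the abundant fibrillar genes, from 243 to 326 CPM. The 6 genes that did not pass the filter were Col4a3, Col4a4, Col6a5, Col10a1, Col19a1 and Col28a1, and none of them exceeded 0.786 CPM in any library.

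Summed over its 11 genes, the fibrillar class took 2544 and 2100 CPM in wild-type forebrain, 1643 and 2366 in knockout forebrain, 1902 and 2513 in wild-type midbrain and 2315 and 2447 in knockout midbrain. The basement membrane class took 1175 and 1131, 1062 and 1166, 896 and 1170, and 1074 and 1111 CPM in the same order. The other collagens took 476 and 381, 281 and 419, 337 and 472, and 442 and 463 CPM. Knockout forebrain pool 1 was the lowest library for fibrillar and other collagens, and wild-type midbrain pool 1 for basement membrane collagens. In all 3 classes the wild-type regions overlapped, and each knockout overlapped its own wild type. Knockout forebrain lay below knockout midbrain without overlap for the other collagens only. The wild-type means of forebrain and midbrain were close: 2322 ± 313 against 2208 ± 432 CPM for fibrillar, 1153 ± 31.1 against 1033 ± 194 for basement membrane and 428 ± 67.6 against 404 ± 95.3 for other collagens (mean ± SD, n = 2 each).

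**Figure D1:**
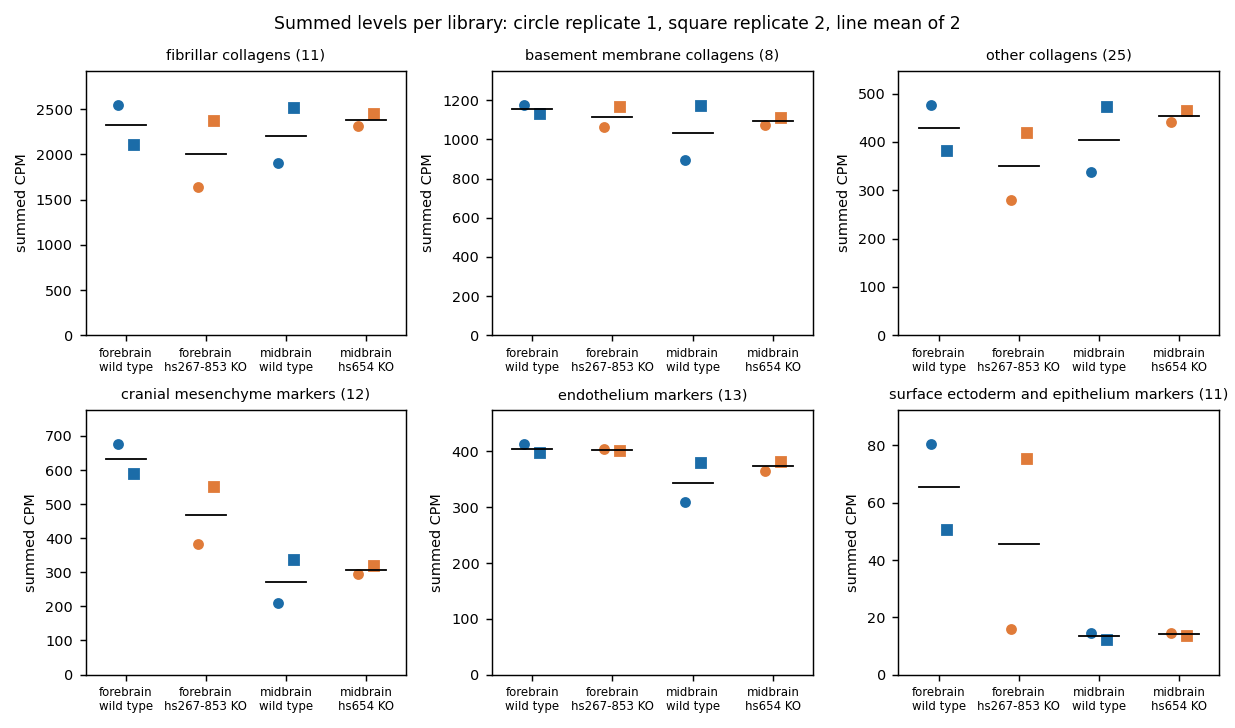
Summed CPM per library (y axis, from 0) in the 4 groups (x axis) for the 3 collagen classes and for marker lists of cranial mesenchyme, endothelium and surface epithelium, with gene numbers in brackets. Circles are replicate 1, squares replicate 2 and lines the mean of 2. The low fibrillar points are 1643 CPM in knockout forebrain replicate 1 and 1902 CPM in wild-type midbrain replicate 1.

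Between wild-type forebrain and wild-type midbrain, 12 of 38 collagen genes passed an adjusted p of 0.05 by the quasi-likelihood test of edgeR (31.6%), beside 29.6% of all genes tested. There were 6 higher in forebrain (Col15a1, Col8a2, Col24a1, Col26a1, Col6a3 and Col17a1) and 6 lower (Col22a1, Col25a1, Col13a1, Col11a2, Col9a2 and Col6a6), and the background was 14.3% higher and 15.3% lower. The share of collagen genes called was thus near that of all genes, and the median log2 fold change was 0.05, against 0.0012 over all genes. The fibrillar class gave 1 higher and 1 lower of 11 (median 0.11), the basement membrane class 1 higher of 6 (median 0.15) and the other families 4 higher and 5 lower of 21 (median -0.29). None of the 4 tested type IV chains was called, and their log2 fold changes lay between -0.16 and 0.15. Groups of libraries did not overlap for 7 collagen genes higher and 11 lower, beside 33.2% and 32.7% of all genes.

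Of the fibrillar genes, Col24a1, a fibrillar chain known from developing bone, was higher in forebrain. It measured 4.89 and 4.02 CPM in wild-type forebrain, 3.23 and 3.80 in knockout forebrain, 2.15 and 1.76 in wild-type midbrain and 2.67 and 2.73 in knockout midbrain. All 4 forebrain libraries were above all 4 midbrain libraries. The wild-type difference was 1.18 ± 0.29 (log2 fold change ± SE, adjusted p = 0.0083, quasi-likelihood test of edgeR, n = 2 against 2). Col11a2, a chain of type XI collagen that helps set fibril width, was lower: 11.1 and 10.1 CPM in wild-type forebrain, 9.87 and 11.9 in knockout forebrain, 18.8 and 16.4 in wild-type midbrain and 16.0 and 19.1 in knockout midbrain. Again no forebrain library reached a midbrain library. Its log2 fold change was -0.74 ± 0.16 (edgeR adjusted p = 0.0037). The fibrillar genes with the most reads, Col1a1, Col1a2 and Col3a1, had log2 fold changes of -0.07, 0.11 and 0.12, with edgeR adjusted p of 0.836, 0.723 and 0.594.

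Among basement membrane collagens only Col15a1 was called. It encodes a proteoglycan collagen found where basement membranes meet the fibrils around vessels, muscle and nerve. Col15a1 measured 45.1 and 35.0 CPM in wild-type forebrain, 36.4 and 36.4 in knockout forebrain, 13.9 and 22.1 in wild-type midbrain and 17.4 and 17.5 in knockout midbrain. The 2 regions were far apart, with no overlap, at a log2 fold change of 1.17 ± 0.18 (edgeR adjusted p = 3.1e-04). Col18a1, its relative and the source of endostatin, measured 208 ± 14.3 CPM in wild-type forebrain and 187 ± 27.6 in wild-type midbrain (SD, n = 2), with an edgeR adjusted p of 0.226.

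Col8a2, a chain of the short network-forming type VIII collagen, measured 75.4 and 59.5 CPM in wild-type forebrain, 39.2 and 66.4 in knockout forebrain, 21.6 and 36.0 in wild-type midbrain and 35.1 and 38.3 in knockout midbrain. Its wild-type groups were well separated, and knockout forebrain pool 1 came close to the midbrain values. The wild-type log2 fold change was 1.24 ± 0.24 (edgeR adjusted p = 0.0016). Col26a1 measured 118 and 89.1 CPM in wild-type forebrain, 74.2 and 96.7 in knockout forebrain, 58.6 and 78.0 in wild-type midbrain and 70.6 and 80.9 in knockout midbrain. Here the wild-type groups did not overlap, but knockout forebrain pool 1 fell among the midbrain libraries. The wild-type log2 fold change was 0.61 ± 0.16 (edgeR adjusted p = 0.011).

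Col6a3, whose long chain carries many of the adhesive domains of type VI filaments, measured 47.5 and 39.6 CPM in wild-type forebrain, 21.1 and 38.97 in knockout forebrain, 20.8 and 28.4 in wild-type midbrain and 33.3 and 27.0 in knockout midbrain. Wild-type forebrain was above all midbrain libraries and knockout forebrain pool 1 was not. The wild-type log2 fold change was 0.84 ± 0.23 (edgeR adjusted p = 0.015). Col17a1 spans the membrane of epithelial cells at hemidesmosomes. Its raw counts were 50 and 44 in wild-type forebrain, 7 and 56 in knockout forebrain, 10 and 8 in wild-type midbrain and 9 and 0 in knockout midbrain, so most of its reads were in 3 of the 4 forebrain pools. Its log2 fold change of 2.40 ± 0.83 in wild type had an edgeR adjusted p of 0.044. Surface epithelium markers moved with it, at 80.4 and 50.5, 15.8 and 75.4, 14.7 and 12.0, and 14.6 and 13.4 summed CPM in the same order of libraries, and their part in the result was not tested.

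Of the genes lower in forebrain, Col22a1, which is known from the junctions of muscle and tendon, was the most uniform. It measured 11.3 and 11.8 CPM in wild-type forebrain, 14.1 and 11.9 in knockout forebrain, 22.5 and 23.9 in wild-type midbrain and 22.9 and 23.7 in knockout midbrain. The midbrain libraries differed little from one another and all exceeded the forebrain libraries, with a wild-type log2 fold change of -1.005 ± 0.13 (edgeR adjusted p = 9.9e-05). Col25a1, a membrane-spanning collagen of neurons with a known role in motor innervation, measured 7.33 and 7.82, 9.19 and 8.71, 15.2 and 12.1, and 13.8 and 12.9 CPM in wild-type forebrain, knockout forebrain, wild-type midbrain and knockout midbrain. All midbrain libraries were above all forebrain libraries, and the log2 fold change in wild type was -0.86 ± 0.17 (edgeR adjusted p = 0.0019). The 9 neuronal markers summed to 1559 and 1320, 1762 and 1214, 3234 and 3120, and 3431 and 3537 CPM in the same libraries, and their part in the Col25a1 difference was not tested.

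Col13a1, a membrane-spanning collagen of the neuromuscular junction, measured 2.04 and 2.48, 1.93 and 2.16, 6.14 and 5.59, and 5.25 and 8.41 CPM in the same order of groups. Every midbrain library exceeded 5 CPM and no forebrain library reached 2.5. Its wild-type log2 fold change was -1.38 ± 0.30 (edgeR adjusted p = 0.0035). Col9a2, a chain of the type IX collagen that decorates type II fibrils, measured 9.502 and 7.66, 6.87 and 10.6, 12.7 and 16.1, and 15.7 and 15.9 CPM, again without overlap of the regions, with -0.73 ± 0.21 in wild type (edgeR adjusted p = 0.019). Col6a6, an alternative type VI chain, was near the detection limit in forebrain, with 6, 10, 1 and 10 counts in the 4 forebrain libraries against 30, 32, 33 and 20 in the 4 midbrain libraries. Its wild-type log2 fold change was -1.91 ± 0.62 (edgeR adjusted p = 0.034).

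In the wild-type comparison, Col15a1, Col8a2, Col22a1, Col25a1, Col13a1 and Col11a2 were called in every leave-one-out fit and alternative run for them. Col26a1 and Col6a3 lost the call without wild-type forebrain pool 1 (log2 fold changes 0.39 and 0.70) or wild-type midbrain pool 1 (0.41 and 0.62), Col24a1 without wild-type forebrain pool 1 (1.03) or wild-type midbrain pool 2 (1.05), Col9a2 without wild-type forebrain pool 2 (-0.59) or wild-type midbrain pool 2 (-0.56), and Col17a1 (2.39 to 2.41) and Col6a6 (-2.41 to -1.50) without any 1 of the 4 wild-type libraries. Col6a6 also lost it without knockout midbrain pool 1 or pool 2 (edgeR adjusted p = 0.062 and 0.059), which share only the estimate of spread. Calls over all genes also fell in each fit without 1 of the 4 wild-type libraries. The median log2 fold change of the collagen genes was -0.15 without wild-type midbrain pool 1.

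**Figure D2:**
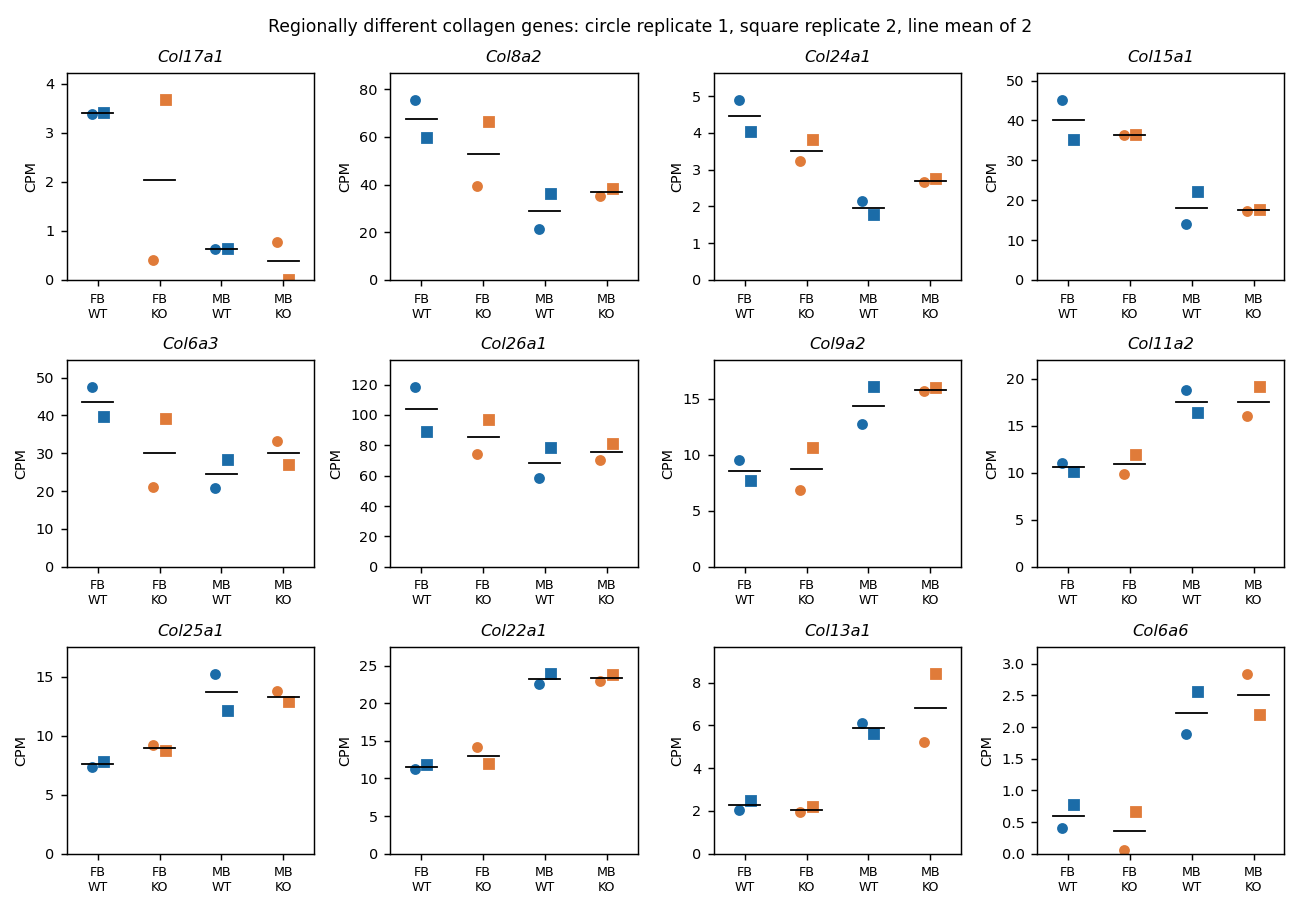
CPM (y axis, from 0, own scale in each panel) of the 12 collagen genes called between wild-type forebrain and midbrain, in the 4 groups (FB forebrain, MB midbrain, WT wild type, KO knockout). Circles are replicate 1, squares replicate 2 and lines the mean of 2. Col15a1 and Col22a1 separate the regions in both genotypes, while Col8a2, Col6a3, Col26a1 and Col17a1 each have a low knockout forebrain replicate 1.

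Knockout forebrain against knockout midbrain repeats the regional contrast in libraries that share no sample with the wild-type contrast, although the deletion differs along with the tissue. Here 12 of 38 collagen genes were called by edgeR's quasi-likelihood test, beside 29.4% of all genes: 1 was higher in forebrain and 11 lower, beside 14.6% and 14.8% of all genes. The gene called higher was Col15a1 (log2 fold change 1.06 ± 0.18). The 11 lower genes were Col6a6 (-2.86), Col14a1 (-1.88), Col13a1 (-1.72), Col12a1 (-1.28), Col6a1 (-1.16), Col9a2 (-0.86), Col22a1 (-0.84), Col6a2 (-0.77), Col11a2 (-0.69), Col25a1 (-0.57) and Col23a1 (-0.50). They include 2 chains of type VI filaments besides Col6a6, and Col12a1 and Col14a1, which lie along type I fibrils.

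Of the 12 genes called in each contrast, 7 were shared (58.3% of each list) and had the same direction, against 3364 shared genes overall (74.0% and 74.4%). All 6 genes lower in wild-type forebrain were shared, and of the 6 higher ones only Col15a1 was. For Col8a2, Col24a1, Col26a1, Col6a3 and Col17a1 the knockout contrast gave 0.52, 0.38, 0.17, -0.02 and 2.20, with edgeR adjusted p of 0.124, 0.372, 0.456, 0.963 and 0.115. Across the 38 genes the fold changes of the 2 contrasts correlated with Pearson's r = 0.900 and Spearman's rho = 0.878, beside 0.870 and 0.757 over all genes, as a description over genes, which are not independent replicates. The sign was the same for 26 of 38 collagen genes (68.4%) and for 80.5% of all genes.

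Fold changes and calls depended on single libraries, and calls over all genes fell as well in each fit without 1 of these knockout libraries. Of the lower genes, Col12a1, Col25a1, Col23a1 and Col6a6 lost the call without knockout midbrain pool 1. Col11a2, Col12a1, Col6a2, Col9a2, Col25a1 and Col23a1 lost it without knockout midbrain pool 2. Col23a1 also lost it without knockout forebrain pool 1, and Col25a1 without knockout forebrain pool 2. Col15a1, Col13a1, Col14a1, Col22a1 and Col6a1 kept it in each of these fits. Without knockout forebrain pool 1, Col8a2 was at 0.86 and Col17a1 at 3.08, and Col6a3 changed sign to 0.37. Without knockout forebrain pool 2 the same genes were at 0.10, -0.10 and -0.52. Without knockout midbrain pool 1 or pool 2, Col8a2 was at 0.44 or 0.59 and Col6a3 at 0.13 or -0.15.

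**Figure D3:**
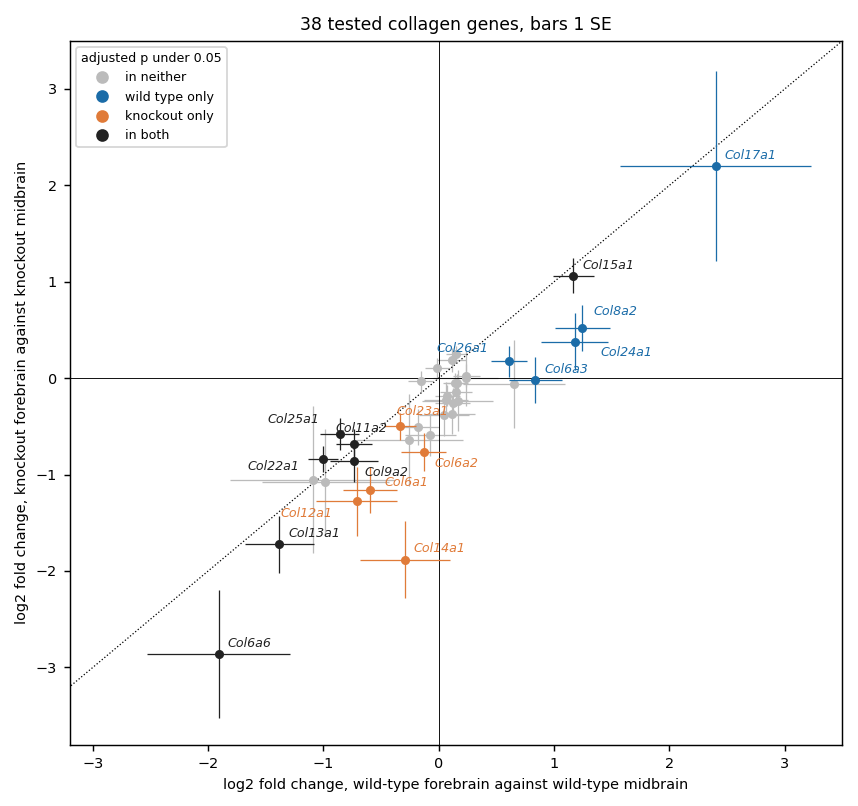
Log2 fold change of forebrain against midbrain in wild type (x axis) and in knockout libraries (y axis) for the 38 tested collagen genes, with bars of 1 SE from edgeR and a dotted line of equality. Black marks the 7 genes called in both contrasts, blue those called in wild type only and orange those called in knockout only. The named blue genes other than Col17a1 lie well below the line, Col6a3 at 0.84 and -0.02.

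Chains of 1 molecule were also compared within each library, as ratios of read counts, which carry the transcripts' lengths and so say nothing of the chain stoichiometry itself. Scaling between libraries does not enter these ratios. Col4a1 over Col4a2 lay between 1.53 and 1.68 in all 8 libraries, and Col5a2 over Col5a1 between 1.74 and 2.09. The ratios of both pairs overlapped between regions and between genotypes. Wild-type midbrain pool 1 had the highest ratio of the type V pair, at 2.09. The overlap of Col4a1 and Col4a2 is short beside their spans, but reads in it cannot be assigned without the strand setting of the counting, which is not given in the sources used here. The same holds for other described members whose spans overlap annotated genes: Col15a1, Col13a1, Col26a1, Col14a1, Col24a1, Col25a1, Col16a1, Col4a6, Col18a1, Col2a1, Col5a1, Col7a1 and Col9a3.

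The type VI chains behaved differently. Col6a3 over Col6a1 was 2.08 and 2.64 in wild-type forebrain, 1.79 and 1.92 in knockout forebrain, 0.846 and 0.857 in wild-type midbrain and 0.963 and 0.735 in knockout midbrain. Every forebrain library held more reads of Col6a3 than of Col6a1, and every midbrain library fewer. Col6a2 over Col6a1, the pair on chromosome 10, ranged from 1.42 to 2.10 in forebrain and from 1.07 to 1.35 in midbrain, a narrower gap without overlap. The ratio separated the regions also in knockout forebrain pool 1, where the levels of all 3 chains were the lowest of the forebrain libraries.

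Similar separations were seen for Col11a1 over Col11a2, at 8.29 to 9.80 in forebrain and 3.98 to 5.89 in midbrain, and for Col9a1 over Col9a2, at 1.73 to 2.34 and 0.831 to 1.61. Col1a2 over Col1a1 shifted less, from 1.43 to 1.60 in forebrain to 1.23 to 1.38 in midbrain. Col9a1 over Col9a3, Col4a5 over Col4a6 and Col8a2 over Col8a1 overlapped between regions, with overall ranges of 2.51 to 3.94, 2.54 to 4.30 and 7.26 to 20.9. These ratios are descriptions, chosen as known partners, and were not tested.

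**Figure D4:**
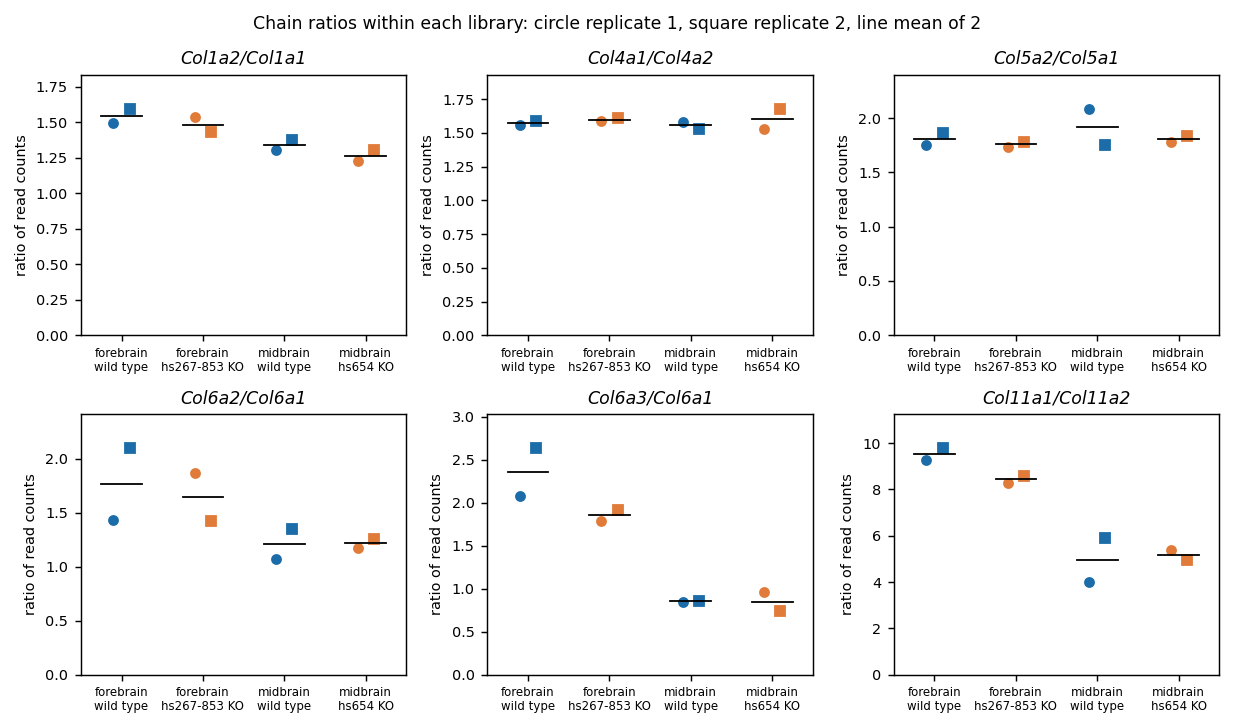
Ratio of read counts of 2 chains of the same collagen type within each library (y axis, from 0) in the 4 groups (x axis). Circles are replicate 1, squares replicate 2 and lines the mean of 2. Col4a1/Col4a2 stays at 1.53 to 1.68, while Col6a3/Col6a1 is 1.79 to 2.64 in forebrain and 0.735 to 0.963 in midbrain.

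In forebrain, the hs267-853 knockout was compared with wild type to ask whether loss of the enhancer altered expression. No collagen gene of 38 was called by edgeR's quasi-likelihood test (smallest adjusted p 0.984), beside 0.0130% of all genes. At an unadjusted p under 0.05 there was 1 collagen gene, Col6a3, beside 4.78% of all genes, and DESeq2 called none. Fold changes were below 0 for 30 collagen genes and above 0 for 8, beside 47.4% and 52.6% of all genes, with a median of -0.23 on the log2 scale against 0.0078 over all genes. By class, 9 of 11 fibrillar, 3 of 6 basement membrane and 18 of 21 other collagens were below 0, with medians of -0.21, -0.03 and -0.33.

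Lowest in p were Col6a3, Col7a1 and Col16a1. Col6a3, with the levels given above, had a log2 fold change of -0.55 ± 0.22 (unadjusted p = 0.031, adjusted p = 0.984, quasi-likelihood test of edgeR). Its knockout pools were 21.1 and 38.97 CPM, so the second was almost as high as the lower wild-type pool at 39.6. Col7a1, the chain of the anchoring fibrils under surface epithelium, was at 8.21 and 8.44 CPM in wild-type forebrain and at 5.67 and 7.14 in knockout forebrain, a log2 fold change of -0.38 ± 0.18. Col16a1, a collagen associated with fibrils, was at 20.97 and 14.6 CPM in wild-type forebrain and at 11.1 and 15.5 in knockout forebrain, at -0.43 ± 0.22, with overlapping groups.

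The 2 knockout pools differed from each other more than the groups did. Knockout pool 1 was the lowest of the 4 forebrain libraries for 30 of 38 collagen genes (78.9%), against 25.5% of all genes, and for 10 of 11 fibrillar genes. Knockout pool 2 exceeded pool 1 for 33 of 38 genes, with a median log2 difference of 0.37, and wild-type pool 1 was the highest forebrain library for 23. Cranial mesenchyme markers were also lowest in knockout pool 1, at 675 and 589 summed CPM in wild type and 384 and 551 in knockout forebrain, with 10 of the 12 lowest there. Surface epithelium markers, at 80.4 and 50.5 and then 15.8 and 75.4 CPM, and roof plate markers, at 173 and 145 and then 106 and 170 CPM, had the collagens' order of the 4 libraries. All 11 epithelial and all 6 tested roof plate genes were lower in knockout pool 1 than in pool 2. Neuronal markers were highest in knockout pool 1, at 1559 and 1320 and then 1762 and 1214 CPM, with 9 of 9 above pool 2. Endothelial markers differed little, at 413, 397, 404 and 402 CPM. The part of these tissues in the collagen values was not tested.

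Without knockout forebrain pool 1, 19 collagen genes were above and 20 below 0 of 39 tested, with a median of -0.00072, and Col6a3 was at -0.16. That pool was the lowest forebrain library for most collagen genes, so a rise of the median was built into leaving it out. Without knockout forebrain pool 2, which left pool 1 as the lone knockout library, Col6a3 was at -1.05. With no filter on low counts the fit called 5 collagen genes lower, Col6a3 among them (edgeR adjusted p = 9.9e-04). Calls over all genes rose in that setting too, as given in the last section, but the share called was larger among the 44 collagen genes. The cause was not tested.

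**Figure D5:**
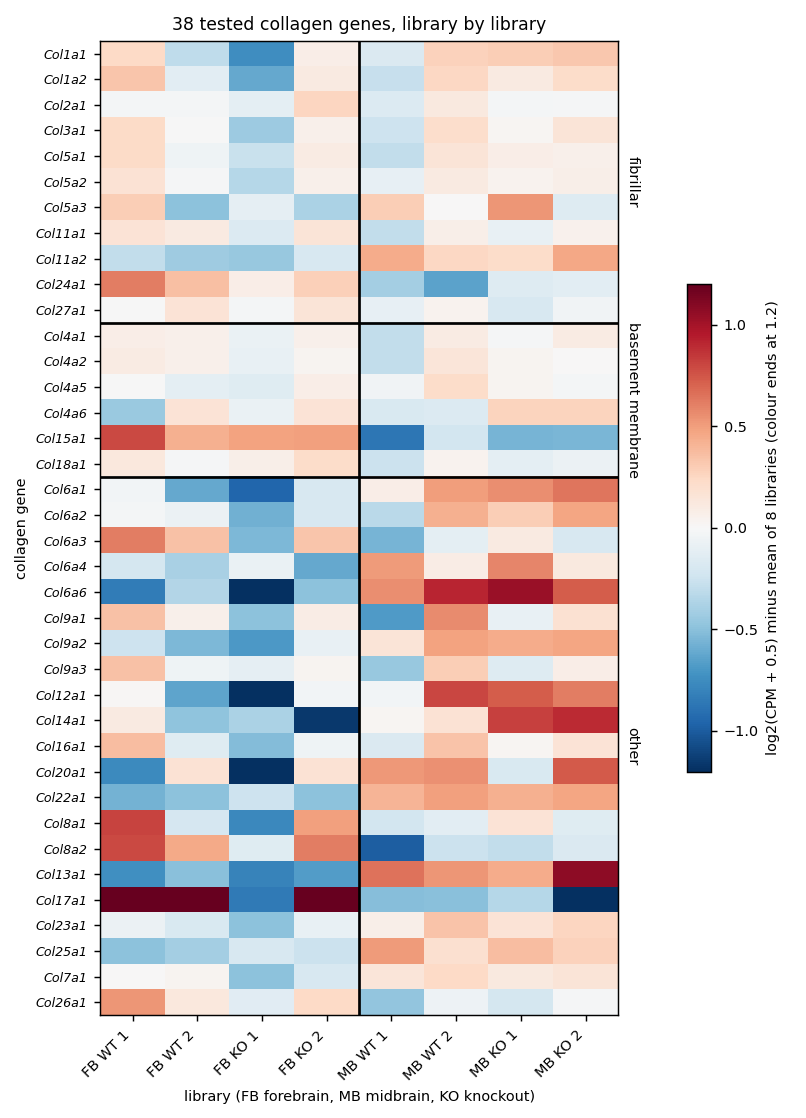
The 38 tested collagen genes (rows, ordered by class) in the 8 libraries (columns). Colour gives log2(CPM + 0.5) minus the gene's mean over the libraries, with colours ending at 1.2 either way. The column of knockout forebrain replicate 1 is the lowest of forebrain for 30 of 38 genes, and that of wild-type midbrain replicate 1 the lowest of midbrain for 28 of 38.

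In midbrain, the hs654 knockout was compared with wild type with the same aim. No collagen gene was called (0 of 38, smallest adjusted p 0.992, quasi-likelihood test of edgeR), as was the case for all genes (0%), and DESeq2 called no collagen gene either. At an unadjusted p under 0.05 there were 2 collagen genes, Col4a6 and Col14a1, beside 3.96% of all genes. Fold changes were above 0 for 27 collagen genes and below 0 for 11, beside 49.7% and 50.3% of all genes, with a median of 0.09 against -0.00092 over all genes. By class the medians were 0.09 for fibrillar, 0.04 for basement membrane and 0.14 for other collagens.

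Col4a6, a type IV chain of epithelial and smooth muscle basement membranes, was at 13.3 and 13.5 CPM in wild-type midbrain and at 18.3 and 18.4 in knockout midbrain, where each pair was tight and the groups did not overlap. The difference was 0.45 ± 0.19 on the log2 scale (unadjusted p = 0.031, adjusted p = 0.992, quasi-likelihood test of edgeR), and the forebrain libraries spanned 10.99 to 17.1 CPM. Col14a1 was at 2.40 and 2.72 CPM in wild-type midbrain and at 4.56 and 4.81 in knockout midbrain, at 0.87 ± 0.37 (unadjusted p = 0.037). With 1 library left out, Col4a6 lay at 0.44 to 0.47 and Col14a1 at 0.79 to 0.96. As the groups of both genes did not overlap, these fits could not turn the sign. Col6a2, the third smallest p, was at 26.4 and 44.6 CPM in wild-type midbrain and at 40.7 and 46.1 in knockout midbrain, at 0.30 ± 0.20, and went to -0.04 without wild-type midbrain pool 1. Non-overlapping groups were found for 36.7% of all genes in this comparison.

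Wild-type midbrain pool 1 was the lowest midbrain library for 28 of 38 collagen genes (73.7%), against 26.6% of all genes. It was lowest for 6 of 6 basement membrane, 7 of 11 fibrillar and 15 of 21 other collagens. Wild-type pool 2 exceeded pool 1 for 32 of 38 genes, with a median log2 difference of 0.32, while the 2 knockout pools differed by a median of 0.04. Markers of cranial mesenchyme (208 and 335 CPM in the wild-type pools, 294 and 317 in the knockout pools) and of endothelium (309 and 379, 365 and 381) were also lowest there, for 11 of 12 and 11 of 13 genes, and 7 of 9 pericyte and smooth muscle markers were. Red cell genes were highest there, at 8347 CPM against 4406, 4697 and 4115 in the other midbrain pools. The part of tissue content in the collagen values was not tested. Without wild-type midbrain pool 1, 14 collagen genes were above and 25 below 0 of 39 tested, with a median of -0.04, and without wild-type midbrain pool 2 the median was 0.32. As pool 1 was the lowest midbrain library for most collagen genes, a fall of the median was built into leaving it out.

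The hs654 effect minus the hs267-853 effect was tested as an interaction. None of the 38 collagen genes was called (smallest adjusted p 0.996, quasi-likelihood test of edgeR), beside 0.00650% of all genes. At an unadjusted p under 0.05 there were 3 collagen genes, beside 4.02% of all genes: Col14a1 (1.59 ± 0.56 on the log2 scale), Col6a3 (0.85 ± 0.33) and Col6a2 (0.64 ± 0.28). The median over the 38 genes was 0.29 with all libraries and -0.06 without both knockout forebrain pool 1 and wild-type midbrain pool 1. This pair was chosen after the data were seen, and each pool was the lowest of its region for most collagen genes. A fall of the median was thus built into the choice. Col14a1 in forebrain was at 2.58 and 1.55 CPM in wild type and at 1.70 and 0.786 in knockout, on 38, 20, 30 and 12 counts. Without knockout forebrain pool 2, which left 1 library in that group, the interaction was 1.16 for Col14a1 and 1.36 for Col6a3.

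Genes that make, bind or cleave collagen were read in the wild-type regional comparison from lists of known partners, where 14.3% of all genes were called higher and 15.3% lower. Of 33 genes for chain modification, folding and processing, 8 were higher in forebrain and 1 lower in edgeR's quasi-likelihood test, with a median of 0.30. The higher genes included P3h2, a prolyl 3-hydroxylase (1.21 ± 0.19), Serpinh1, the collagen chaperone HSP47 (0.68 ± 0.11), and Pcolce, which enhances removal of the C-terminal propeptide (0.60 ± 0.17). The lower gene was Bmp1, the enzyme that removes this propeptide (-0.35 ± 0.09). The enzymes summed to 2160 and 2140 CPM in wild-type forebrain and 1616 and 1879 in wild-type midbrain.

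Of 10 tested receptors, Ddr2 (0.79 ± 0.18), which binds fibrillar collagen, and Mrc2 (0.52 ± 0.10), which takes up collagen for degradation, were higher in forebrain, and Ddr1 (-0.40 ± 0.06), the epithelial counterpart of Ddr2, was lower. Among 16 partners in the basement membrane 5 were higher, with Lama5 (1.70 ± 0.32), Lamb1 (0.56 ± 0.13) and Nid2 (0.52 ± 0.13) changing most, and 2 were lower, the laminin chains Lamc3 (-0.71 ± 0.11) and Lama1 (-0.35 ± 0.07). These calls stand beside none among the 4 tested type IV chains. Of 16 proteins that associate with fibrils, Fbln2 (1.01 ± 0.18), Emilin1 (0.53 ± 0.16) and Fn1 (0.32 ± 0.09) were among 4 higher, and Postn (-1.37 ± 0.25), Fmod (-1.16 ± 0.26) and Thbs2 (-1.15 ± 0.23) among 4 lower. Of 5 tested collagen-cleaving proteases, 1 was higher, the membrane-bound Mmp14 (0.37 ± 0.11). In neither knockout comparison was any gene of these 5 lists called, beside 0.0130% and 0% of all genes.

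In the hs267-853 comparison all 16 fibril-associated proteins had fold changes below 0 (median -0.18), as did 23 of 33 enzymes (median -0.06), beside 47.4% of all genes. In the hs654 comparison 15 of the 16 were above 0 (median 0.13), as were 23 of 33 enzymes (median 0.05), beside 49.7% of all genes. These are the directions of the collagen genes in the same libraries. The fibril-associated sums were lowest in knockout forebrain pool 1 (1197 CPM) within forebrain and in wild-type midbrain pool 1 (1193 CPM) within midbrain, the same pools as for the fibrillar collagens.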

How the data were processed

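The series holds 29 samples. Only the 8 RNA-seq libraries were used; 21 samples of enhancer-capture Hi-C were left aside and are not analysed here. The authors deposited 1 table of raw read counts per gene symbol for each library, without normalization. The submitters' processing notes list STAR, HTSeq, DESeq2 and mm10, and their roles, versions and the strand setting are not given in the sources used here. Rows that name no gene were left out of library sizes and tests. Genes held 40.7% to 44.1% of the reads listed as in a gene, outside genes or ambiguous.

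From the deposited counts, edgeR 4.0.16 in R 4.3.3 gave TMM factors (0.978 to 1.01), filterByExpr kept 15383 genes, and a quasi-likelihood model with 4 group means was fitted across the 8 libraries. P-values are two-sided; Benjamini-Hochberg adjustment ran over all 15383 genes, and 0.05 was the threshold. CPM used TMM-scaled library sizes. A standard error is the size of the log2 fold change over the square root of its F statistic. With 2 pools per group, intervals between pools are wide, and floors of 3 counts cover counting error only. Fits were tested on simulated data.

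The members and gene lists were chosen with earlier results of these data known. The text describes each collagen gene called between wild-type regions with at least 1 CPM, the 3 with the smallest p in each knockout comparison, the 5 with the most reads, and up to 3 called genes in each direction per partner list. Other settings tried were scaling by RLE or upper quartile, dropping the filter, a minimum mean of 50 counts, DESeq2 1.42.0, voom in limma 3.58.1, a block for the replicate number, a fit of only the 2 groups compared, and leaving out each library. Leaving out knockout forebrain pool 1 and wild-type midbrain pool 1 together was chosen after the data were seen. Positions and sequences come from RefSeq tables of GRCm38.p6.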

Additional observations from a re-analysis of the deposited data

Results flagged for a closer look

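Col24a1, a fibrillar chain, moved in opposite directions in the 2 knockout comparisons, with no overlap between knockout and wild-type libraries in either. Non-overlapping groups in the hs654 comparison alone were found for 36.7% of all genes. Col24a1 was found by a search of the collagen genes for this pattern, and the share of all genes with it was not counted. Its log2 fold change was -0.35 in hs267-853 knockout forebrain (4.89 and 4.02 CPM in wild type, 3.23 and 3.80 in knockout) and 0.45 in hs654 knockout midbrain (2.15 and 1.76 CPM in wild type, 2.67 and 2.73 in knockout). The difference of the 2 effects was 0.80 ± 0.42 on the log2 scale, and edgeR's quasi-likelihood test of this difference did not pass (adjusted p = 0.996). With each library left out in turn the difference lay between 0.65 and 0.96. Its sign could not turn in these fits, because the gene was picked for groups that do not overlap. The counts behind it were 22 to 72 per library.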

How the results depend on the processing

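Counts below are of genes called by edgeR's quasi-likelihood test unless another tool is named, for all genes first and then collagen genes, and the cause of each change was not tested. Ranges of these counts over fits without 1 library cover only the libraries of the groups compared. Fits without 1 of the libraries gave 2816 to 3510 genes (4548 with all 8) in the wild-type regional comparison, with 2 to 9 collagen genes higher. In the knockout regional comparison it gave 2810 to 4267 genes (4523 with all 8), with 1 to 5 collagen genes higher and 5 to 17 lower. For hs267-853 it gave 3 to 209 genes (2 with all 8) with 0 to 5 collagen genes lower, for hs654 0 to 8 (0 with all 8), and for the difference of effects 0 to 64 (1 with all 8) with 0 to 1 collagen genes higher. The counts for hs267-853 and for the difference rose most without knockout forebrain pool 2. With no filter on low counts, 161 genes passed for hs267-853 (5 collagen genes lower), 22 for hs654 (1 higher) and 111 for the difference (8 higher), and 4 collagen genes were higher between knockout regions. For hs267-853, hs654 and the difference, the share called in that setting was larger among the 44 collagen genes than among all genes with reads. DESeq2 called 3 collagen genes higher between wild-type regions, 13 genes for hs267-853 and 4 for the difference, and limma-voom called 1 for hs267-853. Fitting only the 2 groups gave 1 gene for each knockout and 2 collagen genes higher between knockout regions. Without both knockout forebrain pool 1 and wild-type midbrain pool 1, 11 collagen genes were lower between wild-type regions and 6 higher between knockout regions, 17 genes passed for hs267-853 (1 collagen gene higher), 1 for hs654 and 10 for the difference (1 collagen gene lower). Signs turned with 1 library left out for genes not called, among them Col14a1 (-0.72 to 0.0178 on the log2 scale), Col6a2 (-0.48 to 0.29), Col16a1 (-0.25 to 0.33) and Col4a6 (-0.28 to 0.35) between wild-type regions. So did further small changes in the knockout comparisons, such as Col12a1 for hs267-853 (0.23 without knockout pool 1) and for hs654 (-0.13 without wild-type pool 1). Between knockout regions this held for Col26a1 (-0.03 to 0.36), Col17a1 (from -0.10 to 7.81) and Col6a3 (-0.52 to 0.37, and 0.35 without both pools). Col6a2 for hs654 ranged from -0.0383 to 0.71, and was -0.0387 without both pools. With the replicate number as a block, 4501, 3, 0, 4515 and 1 genes passed in the wild-type regional, hs267-853, hs654, knockout regional and difference tests. Of collagen counts only that lower between knockout regions moved under the block, to 12. Same-numbered pools showed no shared deviation over all genes (r = -0.025 to 0.067), which does not exclude that the numbers pair some pools. Depth limits the genes under about 1 CPM.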
